A study of Mus musculus with 6 samples.

Results

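The IL-33, IL-1 and IL-18 receptor family was followed here through 10 genes, which were taken by their symbols from a table of 15106 genes counted in T cells of mouse skin. They comprise the receptor chains Il1rl1, Il1r1, Il1r2, Il1rap, Il18r1, Il18rap and Sigirr, the adaptor Myd88 and the kinases Irak4 and Irak1. All 10 were found in the table, and all 10 passed the filter on low counts that left 11775 genes for testing. The RNA came from 4 libraries of regulatory T cells (Tregs) and 2 libraries of effector T cells (Teffs), sorted from the skin of mice aged 6 weeks. Both groups came from mice carrying a FOXP3-GFP reporter, in which green fluorescent protein marks cells that express FOXP3, the transcription factor that defines Tregs. The sources used here do not give the surface markers of the sort, the strain or the number of mice behind a library. Whether the libraries of 1 group stem from separate animals is likewise unstated, so p-values measure the spread between these libraries, which may in part be technical.

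Receptors of this family share a cytoplasmic TIR domain, and a ligand brings a binding chain together with an accessory chain so that their TIR domains recruit the adaptor MyD88 and then the IRAK kinases, which lead to NF-kB and MAP kinase activity. IL-33 is released by stressed barrier cells and signals through ST2, the product of Il1rl1, which is known for its part in tissue Tregs, type 2 helper cells, innate lymphoid cells and mast cells. IL-1 signals through the product of Il1r1, while the product of Il1r2 is a decoy that binds IL-1 and has no TIR domain. The IL-18 receptor, made of the products of Il18r1 and Il18rap, is known for its part in interferon-gamma production by Th1 and cytotoxic cells.

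Among the 10 genes, Il1rl1 rose in Tregs and no other gene passed the test over all genes. Il1r2 lay above both Teff libraries in every Treg library, and Il18r1 and Il18rap lay below both in every Treg library. The groups overlapped for the other 6 genes. With edgeR (quasi-likelihood test), 1 of the 10 was called higher (adjusted p under 0.05), where 0.034% of all tested genes were called in that direction, and 0 were called lower, where 0.00849% of all tested genes were. In either direction the share called was 0.0425% of all tested genes. Unadjusted p was under 0.05 for 3 of the 10 (Il1rl1, Il1r2 and Il18r1), against 4.73% of all tested genes. For 2 of the 10 every Treg value exceeded every Teff value, as for 5.51% of all tested genes, and for 2 of the 10 every Treg value was the lower, as for 9.49%. The median log2 fold change of the 10, coded Treg minus Teff, was -0.19, and that of all tested genes was 0.07. The genes were chosen with earlier results of these data known, so these counts describe them and are not independent evidence.

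**Figure D1:**
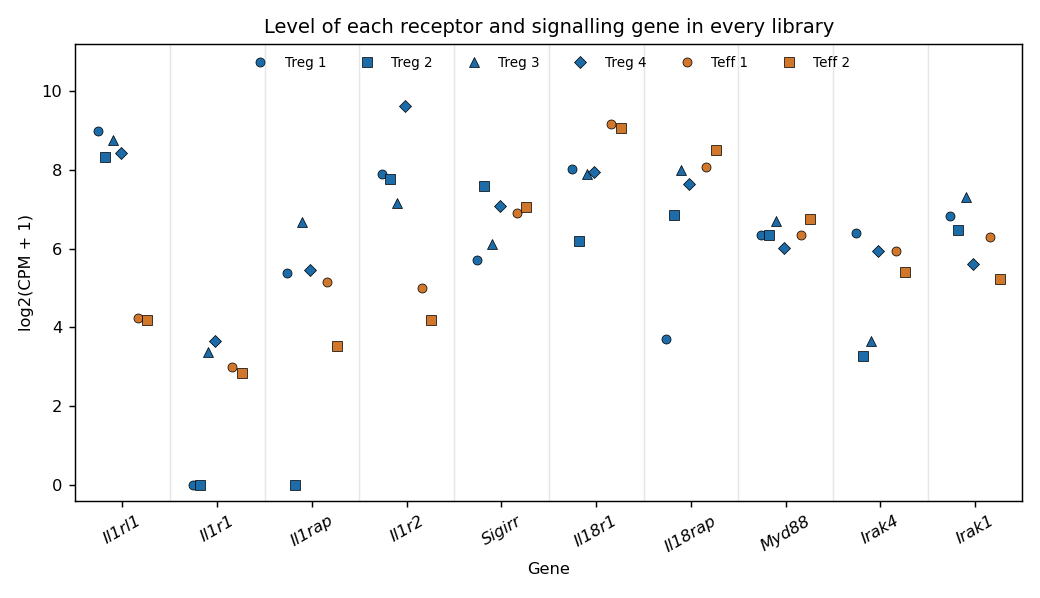
Levels of the 10 genes as log2(CPM + 1), where CPM is the count of a gene relative to all counts in genes on scaled library sizes, for 4 Treg libraries (blue) and 2 Teff libraries (orange), with 1 symbol for each library. Il1rl1 stood at 320 CPM or more in Tregs and at 18.0 CPM or less in Teffs, and Il1r1 had no counts in Treg 1 and Treg 2.

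Of the 10 genes, 5 lie in 1 run on chromosome 1. The genes were chosen as 1 family, so their shared position is a description and not independent evidence. In the GENCODE annotation of GRCm38, the build that mm10 names, Il1r2, Il1r1, Il1rl2, Il1rl1, Il18r1 and Il18rap follow each other on the plus strand from 40074079 to 40551705, a stretch of 478 kb. Il1rl1 (40429570 to 40465415) ends 136 bases before Il18r1 (40465552 to 40500854) begins. The remaining members lie elsewhere: Il1rap on chromosome 16 (26581704 to 26730117), Sigirr on chromosome 7 (141091175 to 141100572), Myd88 on chromosome 9 (119335934 to 119341411), Irak4 on chromosome 15 (94543643 to 94581815) and Irak1 on chromosome X (74013914 to 74023918).

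The sequences that follow are shown because Il1rl1 has separate start sites and because it adjoins Il18r1, whose counts lay on the other side between the groups. They are the 250 bases before each of the RefSeq starts of Il1rl1 (GRCm38.p6, plus strand, chr1:40429320-40429569 and chr1:40439379-40439628) and the 136 bases between Il1rl1 and Il18r1 (chr1:40465416-40465551), each written 5′ to 3′. RefSeq windows were matched for 9 of the 10 genes. Capitals mark matches to motifs searched on both strands: the GATA motif AGATAA, also with T as its first letter, with G as its last or with both, the AP-1 motif TGANTCA, the RUNX motif TGTGGT, the STAT motif TTCNNNGAA, the ETS motif CCGGAA and the forkhead motif TGTTTAC. No 2 of the marked matches overlap.
Il1rl1 upstream start: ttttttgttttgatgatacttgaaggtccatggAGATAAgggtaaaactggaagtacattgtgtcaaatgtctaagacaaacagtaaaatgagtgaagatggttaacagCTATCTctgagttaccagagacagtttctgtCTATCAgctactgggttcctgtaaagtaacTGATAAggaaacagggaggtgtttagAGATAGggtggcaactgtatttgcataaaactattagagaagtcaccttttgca
Il1rl1 downstream start: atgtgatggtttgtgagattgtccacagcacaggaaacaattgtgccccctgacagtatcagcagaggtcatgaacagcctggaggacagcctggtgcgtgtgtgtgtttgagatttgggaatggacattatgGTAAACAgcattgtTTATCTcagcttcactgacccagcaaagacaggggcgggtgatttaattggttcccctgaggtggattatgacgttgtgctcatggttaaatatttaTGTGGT
Between Il1rl1 and Il18r1: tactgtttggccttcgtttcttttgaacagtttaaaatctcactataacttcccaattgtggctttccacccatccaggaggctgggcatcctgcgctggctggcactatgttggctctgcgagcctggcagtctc

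The window before the upstream start of Il1rl1 holds 5 GATA matches, the first letters of which lie 217, 141, 110, 80 and 54 bases before the start. Windows with 5 or more GATA matches made up 14 of the 32851 RefSeq promoter windows (0.0426%), and 26.5% held at least 1. The cut of 5 equals the number found in this window, so that share describes the window and is not independent evidence. The window before the downstream start holds 1 GATA, 1 forkhead and 1 RUNX match, which were found in 26.5%, 3.17% and 14.0% of all windows. No match to any of the 6 motifs was found in the 136 bases before Il18r1, which says only that these letters are not in that stretch. That stretch precedes the Il18r1 start at 40465552, whose transcript has 372 codons. Transcripts of Il18r1 with 537 codons start at 40466006. The window before that start, not printed here, holds STAT matches 219 and 152 bases before it, a motif found in 7.02% of all windows. Matches are descriptions of sequence and not of binding, and the counts do not separate the starts. GENCODE lists 5 coding transcripts of Il1rl1: those of 567 codons encode the membrane receptor and those of 337 codons the soluble form of ST2. The remaining transcript has 65 codons and begins at 40436589. The transcript that begins at 40429570 is of the soluble kind, with 337 codons, and the counts per gene add all of these transcripts.

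Il1rl1, the IL-33 receptor chain ST2, stood at 511, 320, 430 and 346 CPM across Tregs 1 to 4, against 18.0 and 17.1 CPM in the Teffs. Every Treg library was far above both Teff libraries, and within each group the libraries lay close together. The log2 fold change was 4.52 ± 0.44 (SE, 4 against 2 libraries), with an adjusted p of 0.0378 in edgeR. The authors' deposited table gives a log2 fold change of 4.46 and an FDR of 1.9e-05 for this gene. With any 1 library left out, the log2 fold change stayed at 4.38 to 4.61 and the call was lost, at adjusted p of 0.0791 to 0.396 in edgeR.

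Markers of mast cells, which also express ST2, were represented by Kit and Hdc. The other 8 genes of that list had no entry under their symbols in the counts. The summed level of Kit and Hdc was 0 to 26.1 CPM in Tregs and 6.09 to 6.20 CPM in Teffs. In Treg 2, with Il1rl1 at 320 CPM, both had no counts, and the part of such cells in Il1rl1 was not tested. Of the innate lymphoid cell list, 5 of 6 genes had values, with sums of 79.2 to 123 CPM in Tregs and 112 to 159 CPM in Teffs, most of it Il9r. Of its members Hs3st1 had at most 3 counts in any library, and Klf5 had none outside Treg 3 and Teff 1. Arg1 had 155 counts in Treg 3, 162 in Teff 1, 1 in Teff 2 and none elsewhere. Calca had 0 to 20 counts in Tregs and 78 and 112 counts in Teff 1 and Teff 2. The part of innate lymphoid cells in Il1rl1 was not tested. T cell genes such as Cd3e were abundant in every library, with list sums of 3070 to 6571 CPM in Tregs and 5295 to 5310 CPM in Teffs. In a bulk library, fewer cells of a kind and less RNA per cell cannot be told apart.

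Il1rap, the accessory chain shared by the IL-33 and IL-1 receptors, was uneven. It was at 40.4, 0, 100.5 and 42.9 CPM across Tregs 1 to 4, against 34.3 and 10.5 CPM in the Teffs. Treg 2, with 1998 counts of Il1rl1, had 0 counts of Il1rap, where a floor of 3 counts, which covers counting error only, allows up to 0.480 CPM. The groups overlapped, and the log2 fold change of 1.04 ± 1.84 (SE) did not pass. Exons on the other strand (Gm20319) cover 4.86% of its exonic bases.

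Il1r1, the signalling receptor of IL-1, was the lowest of the 10 genes in both groups. It had 0, 0, 53 and 81 counts in Treg 1 to Treg 4 and 53 and 32 counts in Teff 1 and Teff 2, or at most 11.6 CPM. The groups overlapped (log2 fold change -0.34 ± 2.54, SE). Fibroblasts and keratinocytes are known to express this receptor, and their markers were uneven over the same libraries. The summed level of 8 fibroblast genes came to 2079 CPM in Treg 3, to 218 CPM in Teff 1 and to 3.85 to 8.66 CPM in the other libraries. The 6 keratinocyte genes with values reached 722 CPM in Treg 3, against 116 CPM in Teff 1. Il1r1 was at 9.29 CPM in Treg 3 and at 11.6 CPM in Treg 4, where the fibroblast sum was 3.85 CPM and the keratinocyte sum 0.285 CPM. In Teff 2 it was at 6.20 CPM, with sums of 4.07 and 39.1 CPM, and the part of such cells in Il1r1 was not tested.

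Il1r2, the decoy receptor, stood at 235, 218, 142 and 792 CPM across Tregs 1 to 4, against 31.2 and 17.2 CPM in the Teffs. All Treg libraries were above both Teff libraries, and Treg 4 was far above the other Treg libraries. The log2 fold change was 3.84 ± 0.86 (SE), which missed the threshold in edgeR's quasi-likelihood test (adjusted p = 0.378, unadjusted p = 0.00219). DESeq2 called it (adjusted p = 7.45e-05, where 2.08% of its tested genes were called), as did edgeR's exact test (adjusted p = 0.0154, with 0.637% called), and the authors' deposited table gives an FDR of 0.0241, with 0.285% of its entries below 0.05. Without Treg 4 the log2 fold change was 3.04 ± 0.56 (edgeR adjusted p = 0.554).

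Il1r2 is also made by neutrophils and other myeloid cells, and Treg 4 had the highest sum of macrophage and dendritic cell genes. The summed level of 9 macrophage and dendritic cell genes was 612 CPM in Treg 4, 171 to 186 CPM in the remaining Tregs and 246 to 295 CPM in Teffs. Most of the Treg 4 sum was Lyz2, the lysozyme of myeloid cells, at 464 CPM in Treg 4 and at 65.6 to 186 CPM elsewhere. Emr1 and Itgax were also highest in Treg 4, at 43.7 and 24.7 CPM. Csf1r, C1qa, C1qb, C1qc, Cd68 and Mrc1 were highest in other libraries, with Csf1r at 0.713 CPM in Treg 4 and 78.1 CPM in Treg 1. The part of myeloid cells in the Il1r2 values was not tested. The neutrophil genes with values, S100a8 and Csf3r (2 of 8), reached at most 7.54 CPM in any library, and the others had no entry under their symbols in the counts.

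Within a library, the decoy outnumbered the signalling receptor in every case, and by more in Tregs. With Il1r1, which had no counts in Treg 1 and Treg 2, set to a floor of 3 counts per library, counts of Il1r2 were 435-fold and 455-fold those of Il1r1 there. That floor covers counting error only. The ratio was 15.3 in Treg 3 and 68.6 in Treg 4. In Teff 1 and Teff 2 it was 4.45 and 2.78, below all Treg libraries. These are ratios of counts that include gene length, which is the same in every library, and they do not depend on the scaling of libraries. An exact permutation test (two-sided) of the log2 ratio with 1 count added to each gene gave p = 0.133 for a difference of 5.90 between the group means, and the smallest p that 4 against 2 libraries allow is 0.0667. With any 1 library left out the difference was 4.99 (without Treg 2) to 7.16 (without Treg 3), and it rests in part on the 0 counts of Il1r1 in Treg 1 and Treg 2.

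Sigirr, an inhibitory member of the family that dampens IL-1 and Toll-like receptor signals, did not separate the groups. It was at 51.2, 192, 68.0 and 136 CPM across Tregs 1 to 4, against 119 and 133 CPM in the Teffs. The Treg libraries spanned both Teff values, with Treg 1 and Treg 3 below them and Treg 2 and Treg 4 above. Its log2 fold change was -0.17 ± 0.60 (SE).

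Il18r1, the ligand-binding chain of the IL-18 receptor, was at 261, 72.8, 236 and 245 CPM across Tregs 1 to 4, against 574 and 534 CPM in the Teffs. Both Teff libraries were above all Treg libraries, and Treg 2 was far below the other Tregs. The log2 fold change was -1.44 ± 0.50 (SE), which did not pass over all genes in edgeR (adjusted p = 0.721, unadjusted p = 0.0195) or DESeq2 (adjusted p = 0.310). Without Treg 2 it was -1.16 ± 0.30 (edgeR adjusted p = 0.605). Every library of both groups held counts of this chain, 455 at the least.

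Il18rap, the accessory chain of the IL-18 receptor, was at 12.1, 114, 253 and 200 CPM across Tregs 1 to 4, against 270.3 and 363 CPM in the Teffs. The groups did not overlap, although Treg 3 and Teff 1 were close, and Treg 1 was lowest. The log2 fold change was -1.13 ± 0.88 (SE), which did not pass. The order of the Treg libraries differed between both chains: Treg 1 had the highest Il18r1 and the lowest Il18rap. On the log2 scale the ratio of Il18rap to Il18r1 counts was -4.41 in Treg 1, -0.29 to 0.65 in the other Tregs and -1.09 and -0.56 in Teffs, and the groups overlapped (exact permutation p = 1).

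CD8, gamma-delta and NK cells are known to carry the IL-18 receptor, and their markers were measured beside these values. The sum of Cd8a and Cd8b1 was 0.180 to 65.6 CPM in Tregs and 93.6 to 142 CPM in Teffs. The gamma-delta genes with values (Cd163l1, Sox13 and Blk, 3 of 6) had no counts in Tregs and summed to 21.2 and 21.7 CPM in Teffs, and the NK genes (2 of 5) summed to 0 to 24.0 CPM in Tregs and 1.59 to 8.72 CPM in Teffs. The part of such cells in the higher Il18r1 and Il18rap of Teffs was not tested.

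**Figure D2:**
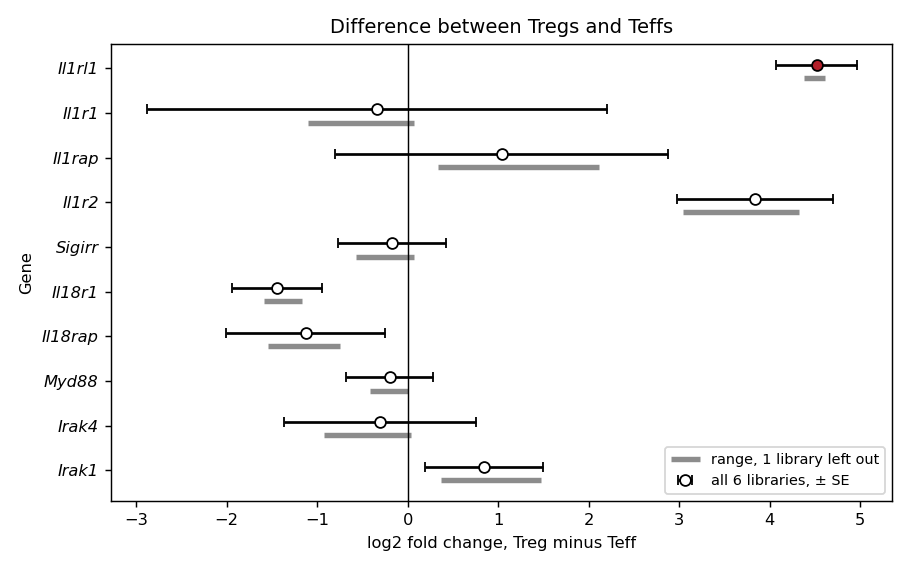
Log2 fold changes, Treg minus Teff, of the 10 genes with their standard error (circles and bars, filled where the adjusted p was under 0.05) and the range of the value with each of the 6 libraries left out in turn (grey). Il1rl1 and Il1r2 lie at 4.52 and 3.84, Il18r1 and Il18rap at -1.44 and -1.13, and the range of Il1r1, Sigirr, Myd88 and Irak4 reaches across 0.

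The neighbours Il1rl1 and Il18r1 lay on opposite sides between the groups. The log2 ratio of their counts was 0.97, 2.13, 0.86 and 0.50 in Treg 1 to Treg 4 and -4.98 and -4.95 in Teff 1 and Teff 2. In every Treg library Il1rl1 had more counts than Il18r1, and in both Teff libraries far fewer. The difference between the group means was 6.08 on the log2 scale, at the smallest p the design allows (exact permutation p = 0.0667, two-sided; 0.2 after Benjamini-Hochberg adjustment over the 3 ratios computed). Leaving out any 1 library gave 5.75 to 6.29.

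**Figure D3:**
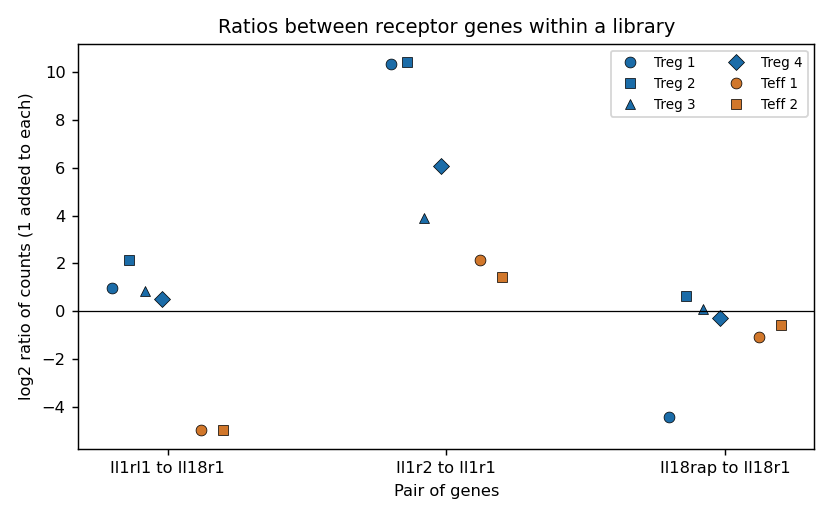
Log2 ratios of counts (1 added to each) between pairs of receptor genes within each library, for Tregs (blue) and Teffs (orange), with 1 symbol for each library. The ratio of Il1rl1 to Il18r1 is above 0 in all Tregs and near -5 in both Teffs, and that of Il18rap to Il18r1 overlaps between the groups.

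Along the run on chromosome 1, the genes were taken in their order. Per kilobase of merged exons, which allows genes to be compared, Il1r2 was at 182 ± 157 CPM per kb in Tregs and 12.7 ± 5.19 CPM per kb in Teffs (SD, n = 4 and 2). Il1r1 was at 0.819 ± 0.957 and 1.04 ± 0.0905 CPM per kb, and the adjoining Il1rl2, the receptor of IL-36, had 17 counts in Treg 4 and none in the other Tregs, with 33 and 9 counts in Teff 1 and Teff 2. Il1rl1 followed at 58.3 ± 12.6 and 2.54 ± 0.0974 CPM per kb, then Il18r1 at 42.3 ± 18.3 and 115 ± 5.79 CPM per kb and Il18rap at 21.5 ± 15.6 and 46.9 ± 9.71 CPM per kb. Il1r1 and Il1rl2, with few or no counts, thus lie between Il1r2 and Il1rl1, the pair that was above both Teffs in every Treg library. Of the genes flanking the run, Map4k4, a kinase of stress signalling, was at 5.05 to 93.9 CPM in Tregs and 109 and 151 CPM in Teffs (log2 fold change -1.25 ± 0.97, not passing), and Slc9a4, a sodium-proton exchanger, had counts in Treg 1 alone.

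**Figure D4:**
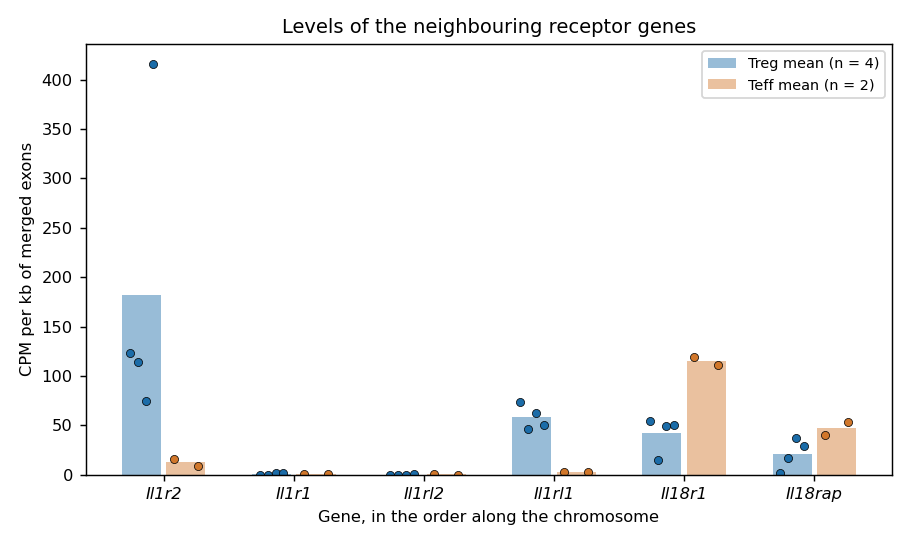
Levels, in CPM per kilobase of merged exons, of the 6 receptor genes in their order along chromosome 1, with the mean of each group (bars) and each library (points). Il1r2 and Il1rl1 are higher in Tregs, Il18r1 and Il18rap are higher in Teffs, and Il1r1 and Il1rl2 are near 0 in both groups.

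Ordered by level per kilobase, the 10 genes in Tregs ran from Il1r2 through Il1rl1, Il18r1, Sigirr, Myd88, Irak1, Il18rap, Irak4 and Il1rap down to Il1r1. The Il1r2 range lay above that of Il1rl1, at 74.5 to 415 against 46.4 to 74.2 CPM per kb, and the ranges of all other neighbours in that order overlapped. In Teffs the order began with Il18r1, Il18rap, Sigirr and Myd88, and Il1rl1 was the eighth, ahead of Il1rap and Il1r1. Il18r1 lay apart from the next gene there, as did Myd88 and Irak4 from the genes after them, with 2 libraries in each range.

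The adaptor and the kinases, on which the signalling receptors of the family converge, overlapped between the groups, and 0 of these 3 genes had an unadjusted p under 0.05 in edgeR or were called by DESeq2. Myd88 was at 80.1, 80.0, 103 and 63.9 CPM across Tregs 1 to 4, against 79.7 and 108 CPM in the Teffs, the narrowest spread of the 10 genes in Tregs relative to its mean. Its log2 fold change was -0.20 ± 0.48 (SE), and exons of Acaa1a on the other strand cover 11.3% of its exonic bases. How reads from such bases were assigned is unstated.

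Irak4, the kinase that MyD88 recruits, was at 83.9, 8.64, 11.6 and 60.1 CPM across Tregs 1 to 4, against 60.2 and 41.1 CPM in the Teffs. Treg 2 and Treg 3 were below both Teffs, Treg 1 was above both, and Treg 4 lay between them, with a log2 fold change of -0.30 ± 1.06 (SE). Irak1, which Irak4 phosphorylates, was at 113, 87.4, 159 and 47.5 CPM in Tregs and at 77.3 and 36.2 CPM in Teffs. Treg 1, Treg 2 and Treg 3 exceeded both Teffs and Treg 4 lay between them, with a log2 fold change of 0.84 ± 0.65 (SE). Exons of Twf1 on the other strand cover 7.87% of the exonic bases of Irak4, and 2 microRNA genes lie in 2.99% of those of Irak1.

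Ligands were low or uneven in these cells. Of 11 ligands and antagonists listed, Il1b, Il1rn, Il18 and Il18bp were tested, 0 of the 4 passed in edgeR or DESeq2, and 0 had an unadjusted p under 0.05. Il33, Il1a and the IL-36 genes had no entry under their symbols in the counts. Il1b, the myeloid form of IL-1, was at 0.180, 2.56, 0 and 307 CPM across Tregs 1 to 4, against 14.2 and 118 CPM in the Teffs. Its highest value was in Treg 4, the library that also had the highest Il1r2 and the highest macrophage and dendritic cell sum, most of it Lyz2. Teff 2, with Il1b at 118 CPM, had the lowest Il1r2, at 17.2 CPM. The part of myeloid cells in the Il1b values was not tested. Il18 reached 15.5 CPM and had 0 counts in Treg 1 and Teff 1, and Il1rn, the IL-1 receptor antagonist, reached 23.7 CPM, in Treg 3.

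Genes that act below the receptors did not pass either. Of 20 listed, 18 were tested and 0 were called in edgeR's quasi-likelihood test, with 2 at an unadjusted p under 0.05 (4.73% of all tested genes) and 1 called by DESeq2 (2.08% of all genes it tested). Their median log2 fold change was 0.17 against 0.07 over all tested genes, with 12 positive and 6 negative. The member called by DESeq2 was Peli1, an E3 ubiquitin ligase that acts on IRAK1, at 309, 360, 322 and 517 CPM across Tregs 1 to 4, against 87.8 and 106 CPM in the Teffs. All Treg libraries were above both Teffs (log2 fold change 1.96 ± 0.40, edgeR adjusted p = 0.284). Tab2 and Ikbkb, which link TRAF6 to NF-kB, overlapped between the groups, with log2 fold changes of 0.05 ± 0.41 and 0.33 ± 0.53.

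Toll-like receptors, which use the same adaptor, and inflammasome genes, which process IL-1 and IL-18, were each without a call in edgeR. Of 18 Toll-like receptor and TIR adaptor genes 10 were tested, 2 had an unadjusted p under 0.05 (4.73% of all tested genes), and DESeq2 called 0 (2.08% of all genes it tested). The median log2 fold change was 1.73 (0.07 over all tested genes), with 9 positive and 1 negative, but several of these genes rested on few libraries. Tlr6 had 558, 1, 47 and 1 counts in Tregs 1 to 4 and 0 in both Teffs (log2 fold change 10.4 ± 4.26). Tlr11 had 206 counts in Treg 4 and 0 in the other Tregs. Tlr1, a receptor of bacterial lipoproteins that pairs with TLR2, was at 130, 158, 53.6 and 35.8 CPM across Tregs 1 to 4, against 14.8 and 21.3 CPM in the Teffs (log2 fold change 2.39 ± 0.84, edgeR adjusted p = 0.737). Of 11 inflammasome genes 9 were tested, 1 had an unadjusted p under 0.05, and the median was -0.42. That gene, also the sole call of DESeq2 in this list, was Casp1, the protease that cleaves pro-IL-1 beta and pro-IL-18. It was at 67.1, 69.6, 47.9 and 52.6 CPM in Tregs and at 146 and 174 CPM in Teffs, with no overlap (log2 fold change -1.43 ± 0.44, edgeR adjusted p = 0.721).

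Genes linked to the responses of these receptors were taken as separate lists, chosen with earlier results known, and no difference between the lists was tested. Of 12 genes linked to IL-33 responsive tissue Tregs and type 2 cells, 11 were tested, with a median log2 fold change of 1.41, 9 positive and 2 negative. Klrg1, an inhibitory receptor of differentiated T cells, rose (log2 fold change 5.28 ± 0.54, edgeR adjusted p = 0.0378), but that call was lost with any 1 library left out, at adjusted p of 0.0841 to 0.396 in edgeR. An unadjusted p under 0.05 was found for 7 of the 11 (4.73% of all tested genes), and DESeq2 called 4 (2.08% of all genes it tested). Of those 7, Batf, Areg, Klrg1, Rora, Nfil3 and Il10 lay higher in Tregs. Il13 lay lower, with 0 counts in every Treg library and 135 and 55 counts in Teff 1 and Teff 2 (edgeR adjusted p = 0.721). Gata3, a transcription factor known to act on Il1rl1, overlapped between the groups, at 195, 471, 330 and 303 CPM across Tregs 1 to 4, against 216 and 278 CPM in the Teffs, and was singled out here because the window printed for the upstream start holds GATA matches. Of 13 genes linked to IL-1 and IL-18 responses, 12 were tested, with a median of -1.88, 3 positive and 9 negative, 5 at an unadjusted p under 0.05, 0 called in edgeR and 4 in DESeq2. Over all tested genes these shares were 4.73%, 0.0425% and 2.08%, and the median was 0.07. The most abundant by the mean over all 6 libraries were Il2ra (log2 fold change 4.46 ± 0.59), Ccr6 (2.08 ± 0.44) and Gadd45b (0.74 ± 0.55), which are also the 3 positive ones. In Teffs alone the highest was Ifng, the interferon-gamma gene, named after its values were seen. It was at 16.2, 43.8, 10.2 and 47.9 CPM across Tregs 1 to 4, against 232 and 393 CPM in the Teffs, with no overlap (log2 fold change -3.40 ± 0.67, edgeR adjusted p = 0.283, DESeq2 adjusted p = 0.000726). Il17f, a cytokine of Th17 cells named in the same way, had 0 counts in every Treg library and 444 and 58 counts in the Teffs (edgeR adjusted p = 0.619, DESeq2 adjusted p = 0.000649).

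The genes whose levels were most like those of 3 members were taken by Pearson correlation of log2(CPM + 1) over the 6 libraries, among 4390 genes with a mean of 50 CPM or more. All 6 libraries enter, so the difference between groups is part of each value, and the correlations are descriptions. Most like Il1rl1 were Cd83 (0.99), Klrg1 (0.98), Sdcbp2 (0.98) and Gprasp1 (0.98). Cd83, a surface protein of activated lymphocytes and dendritic cells, was at 842 to 1733 CPM in Tregs against 54.9 and 49.6 CPM in the Teffs, and was itself called (log2 fold change 4.46 ± 0.49, edgeR adjusted p = 0.0460). That call too was lost with any 1 library left out (edgeR adjusted p of 0.0791 to 0.445). Most like Il1r2 were Inpp5k (0.99), Snx2 (0.98), Ubap1 (0.97) and Swap70 (0.96), whose own folds were smaller, with log2 fold changes of 0.48 to 1.56. Most like Il18r1 were Zw10, Themis, Kif11 and Sema4a (0.98 or more), each at its lowest in Treg 2, where Themis, a regulator of T cell receptor signals, and Kif11, a motor of the mitotic spindle, had no counts. Among pairs of members, Il1rl1 and Il1r2 had the highest correlation (0.88).

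Library totals were 4902126 to 7468778 counts in genes, and 3 counts corresponded to 0.397 to 0.581 CPM. Foxp3 stood at 103 to 233 CPM in Tregs and at 7.17 and 11.3 CPM in Teffs, on the side that the labels give. Libraries of 1 group differed widely, and edgeR put their biological coefficient of variation at 1.20, and Treg 3 stood apart by its fibroblast and keratinocyte sums. Without Treg 3 the 10 genes kept the sign of their log2 fold change except Sigirr and Irak4, which came to 0.0018 and 0.02.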

How the data were processed

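RNA of 4 Treg and 2 Teff libraries was sequenced after amplification by a SMARTer kit for ultra-low input (source: the labels' protocols). Tools named, without roles, in the submitters' processing notes are HTSeq 0.6.1 and SAMtools 0.1.19.0, as well as TopHat2 2.0.12 with Bowtie2 2.1.0.0, CASAVA 1.8.2 and the build mm10. The sources used here give neither the annotation nor the strand setting. Raw counts for each gene were deposited, as the file headers and whole-number values show. The authors also deposited a log2 fold change, a mean log2 CPM, a p-value and an FDR for each entry, from a test that the sources used here do not name. The deposited log2 CPM was scaled to totals that include reads without a gene. Those 3 counter entries (88.0% to 90.2% of a column) entered neither library sizes nor tests.

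Tests used edgeR 4.0.16 in R 4.3.3 (filterByExpr with a smallest count of 10, TMM factors of 0.913 to 1.05, quasi-likelihood F test on group alone, Benjamini-Hochberg over 11775 genes, called at 0.05). SE is the log2 fold change over the square root of F. DESeq2 1.42.0 and edgeR's exact test were alternatives, the latter chosen after seeing the data. Lengths are merged exons of GENCODE M21. Floors of 3 counts cover counting error only, as PCR copies of a molecule are not independent. Named were all 10 members, the called or most abundant genes of each list, the ligands, the flanking genes and the 4 most alike genes of 3 members; other genes were named after their values were seen. Members and lists were chosen with earlier results of these data known.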

Additional observations from a re-analysis of the deposited data

Results flagged for a closer look

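In 13 sets of 4 Treg values (the 10 genes and 3 ratios), a value was singled out where its gap to the nearest other value exceeded Dixon's 95% critical share of the range of the 4. Chance gives that in about 1 of 20 sets of normally distributed values. The CPM values of the genes entered without a log, so that rate need not hold for them. A value was singled out in 2 of the 13 sets. Il1r2 was highest in Treg 4, at 792 CPM, with a gap of 0.857 of the range. Il18r1 was lowest in Treg 2, at 72.8 CPM, with a gap of 0.870 of the range.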

How the results depend on the processing

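The 10 genes gave 1 higher call with edgeR's quasi-likelihood test under TMM, DESeq2-type size factors, upper-quartile scaling, no filter, a filter at a mean CPM of 10 and an adjusted p of 0.1, and 2 with DESeq2 and with edgeR's exact test, which added Il1r2 (log2 fold change 3.85 and 3.84). With any 1 library left out there were 0 calls among them in either direction, with 2 or 3 at an unadjusted p under 0.05. Fewer libraries enter these fits. Over all genes, 4 higher and 1 lower calls became 17 and 2 without a filter, 159 and 59 with DESeq2, 46 and 29 with the exact test, and 0 to 2 higher and 0 lower with a library left out. No scaling changed the sign of any of the 10 genes. Upper-quartile scaling moved the median of all genes from 0.07 to -0.04. At a mean CPM of 10, Il1r1 was filtered out.

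With each library left out in turn, log2 fold changes crossed 0 for Il1r1 (-1.11 to 0.072), Sigirr (-0.57 to 0.065), Myd88 (-0.42 to 0.0052) and Irak4 (-0.92 to 0.033), as did the Il18rap to Il18r1 ratio (-0.71 to 0.97). None of these passed a test with all libraries, and the cause was not tested. With 0.5 added in place of 1, the ratio of Il1r2 to Il1r1 differed by 6.39.

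The labels give replicate numbers, of which 1 and 2 occur in both groups. Same-numbered libraries deviated from their group means with correlations of -0.01 and 0.17. With 2 Teff libraries, whose deviations mirror each other, this cannot show whether the numbers pair the libraries, and the labels state no shared origin. A fit with the replicate number as a block, in which Treg 3 and Treg 4 drop out of the comparison, called 9 genes higher and 6 lower, among them Il1rl1 (4.53, edgeR adjusted p = 0.0237). Without the block, the Il1rl1 call was lost with any 1 library left out. In the block fit only Treg 1, Treg 2 and the Teffs inform the difference and its residual spread. In that fit Il1rap changed sign (-2.90), Il1r1 moved to -8.36 and Il18rap to -3.06, neither of them called, and the median of all genes was -0.64. By counting error alone, a gene with 0 counts is bounded at 0.397 to 0.581 CPM, depending on the library. Libraries of 1 group could differ by far more, as for Slc9a4, with 311 counts in Treg 1 and 0 in the other Tregs.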
